A study of Mus musculus with 2 samples.

Results

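Dendritic epidermal T cells (DETC) are the gamma-delta T cells that live among the keratinocytes of mouse epidermis. They were examined here in dorsal skin of wild-type (WT) and Chrna5-/- mice, the latter lacking the alpha 5 subunit of the nicotinic acetylcholine receptor. Each genotype was measured in 1 single-cell RNA library, so no difference between the libraries has a replicate check, and every interval given covers counting error only. Both groups were C57BL/6 females of 6 to 8 weeks whose shaved backs had been given the vaseline cream base and which were killed on day 7. Collagenase released the cells of the skin, and those that excluded a dead-cell dye were sorted. How many mice went into a library, and which part of Chrna5 was deleted, was not given in the sources used here.

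DETC were chosen by measured values, the unique molecular identifiers (UMIs, 1 for each captured RNA molecule) of each barcode. A barcode needed 500 UMIs or more from no fewer than 300 genes, with no more than 20% of them mitochondrial and with Krt5 and Krt14 together below 1%. It also needed at least 2 UMIs of the CD3 chain genes Cd3e, Cd3d and Cd3g, at least 1 of the delta constant gene Trdc, and at least 1 of the variable genes Trdv4 and Tcrg-V5. Barcodes with any UMI of Cd163l1, or with 2 or more of Il17a, were left out, since these genes mark dermal type 17 gamma-delta T cells. The rule found 310 DETC among 10160 cells that passed the cell filter in the WT library and 361 among 9308 in the knockout library, 671 of 19468 in all. A WT DETC held a median of 3104 UMIs (605 to 24958) and a knockout DETC 3265 (516 to 28617). Over all DETC, 1158040 UMIs were summed for WT and 1390207 for knockout. No WT DETC and 1 knockout DETC carried a barcode found in both libraries, out of 34 shared barcodes.

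DETC arise from fetal thymic precursors and seed the epidermis before birth, where they renew themselves locally. They carry a nearly invariant receptor of the Vgamma5 and Vdelta1 chains, recognise stressed keratinocytes, and secrete growth factors and chemokines such as lymphotactin, the product of Xcl1. They express receptors shared with natural killer cells and the epidermal integrin CD103, the product of Itgae.

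Xcl1 and Rgcc, which encodes a regulator of cell cycle progression, were the most abundant genes called higher in knockout DETC with and without doublet-like cells, as described further on, so the 250 bases before their starts are shown from RefSeq on GRCm38.p6, 5′ to 3′ on the gene's strand. Capitals mark every match found to the core motifs GGAAA (NFAT core) and AGGAAG (ETS), searched on both strands.
Xcl1, chr1:164935523-164935772, minus strand: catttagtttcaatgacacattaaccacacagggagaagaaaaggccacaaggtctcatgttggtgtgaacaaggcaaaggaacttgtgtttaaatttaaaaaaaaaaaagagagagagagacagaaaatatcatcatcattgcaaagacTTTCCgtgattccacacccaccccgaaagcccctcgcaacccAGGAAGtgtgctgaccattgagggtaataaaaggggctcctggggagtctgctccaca
Rgcc, chr14:79301636-79301885, minus strand: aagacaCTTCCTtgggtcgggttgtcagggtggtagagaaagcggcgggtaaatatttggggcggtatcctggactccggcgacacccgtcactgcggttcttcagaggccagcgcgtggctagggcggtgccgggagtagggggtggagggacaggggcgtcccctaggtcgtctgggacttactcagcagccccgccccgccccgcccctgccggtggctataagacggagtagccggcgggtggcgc
The Xcl1 window held 1 GGAAA match, on the opposite strand and starting 100 bases before the start, and 1 AGGAAG match 58 bases before it. The Rgcc window held 1 AGGAAG match, on the opposite strand and 244 bases before the start, and no GGAAA. Of 32817 windows of this length, 55.6% held GGAAA and 29.5% held AGGAAG, so neither match is rare. The AP-1 motif TGANTCA (in 6.75% of windows), the CRE motif TGACGTCA (in 1.55%), both searched on both strands, and TATAAA on the gene's strand (in 7.60%) were in neither window. The genes lie at chr1:164931644-164935527 and chr14:79288756-79301645 in GENCODE vM21.

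The 8 markers supplied with the DETC label were all detected in both libraries. Of these, Cd3e, Cd3g, Trdc, Trdv4 and Tcrg-V5 were used by the rule and show nothing beyond it. The other 3 were Xcl1, Nkg7, a granule protein gene of cytotoxic lymphocytes, and Ctla2a, a cysteine protease inhibitor gene. After each cell was thinned to 1000 UMIs, which left 304 WT and 350 knockout DETC (6 and 11 were shallower), Ctla2a was found in 97.4% of WT and 96.9% of knockout DETC. It was found in 1.16% and 0.954% of keratin-rich cells, which should lack it and had unthinned medians of 15083 and 14533 UMIs. Without thinning, 97.4% and 98.6% of DETC held a UMI of Ctla2a. The same thinned shares were 79.3% and 78.3% for Nkg7, against 0.302% and 0.251% of keratin-rich cells. Both of these genes, which the rule had not used, were thus common in DETC and rare in keratin-rich cells.

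Within the receptor genes, the variable gene requirement rested almost wholly on the delta chain. Trdv4, the delta chain gene, was found in 98.7% of WT and 99.4% of knockout DETC, and Tcrg-V5, the gamma chain gene, in 15.8% and 15.2%. In WT, 261 DETC held Trdv4 alone, 4 held Tcrg-V5 alone and 45 held both. In knockout these numbers were 306, 2 and 53. DETC also held beta chain constant transcripts, with Trbc1 in 64.8% and 67.3% and Trbc2 in 64.2% and 65.9% of cells, while Cd4 had no UMI in DETC of either library. Trbc1 and Trbc2 are near-identical, so the split between them is uncertain. Trac, the alpha constant gene, was found in 10.3% and 17.5% of cells.

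Cells just inside and just outside the rule are given for its main limits. DETC with exactly 1 UMI of the variable genes numbered 76 and 70 and had 6777 and 7874 UMIs per 1000000 (counts scaled to a common total, CPM) of Ctla2a. Cells without such a UMI that met every other condition numbered 77 and 71 and had 5354 and 5238 CPM. Xcl1 in the same sets stood at 800 CPM in WT and 2073 CPM in knockout inside the rule, and at 658 and 735 CPM outside it. Both sets were shallow, with medians of 2374.5 and 2113 UMIs inside the rule and 2043 and 2126 outside it. Cells that met the receptor conditions but were left out for Cd163l1 or Il17a numbered 63 in WT and 26 in knockout, and their Ctla2a stood at 981 and 3984 CPM. At the keratin limit, 4 and 9 DETC had 0.5 to 1% of UMIs from Krt5 and Krt14, while 39 and 33 cells at 1% or more were left out, with medians of 19669 and 15700 UMIs.

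Nearly every DETC held some RNA of other cell types, and a small set held much of it. UMIs of the keratinocyte markers were found in 307 of 310 WT and 361 of 361 knockout DETC, with a median of 0.230% and 0.229% of a cell's UMIs, and those of melanocyte markers in 205 and 158 DETC. Cells were marked when their Scrublet doublet score was above 0.25 or when over 1% of their UMIs came from markers of keratinocytes, melanocytes, fibroblasts, Langerhans cells, myeloid or vascular cells. This marked 20 WT DETC (6.45%) and 22 knockout DETC (6.09%), which held 19.1% and 12.6% of all DETC UMIs. The 10 keratinocyte markers summed to 8337 CPM in WT and 5775 CPM in knockout DETC, and to 2096 and 2133 CPM without the marked cells, against 45719 and 45743 CPM in keratin-rich cells. Krt5 and Krt14 are among these markers. The rule kept them below 1% together in DETC, and keratin-rich cells held 1% or more. Part of this contrast was therefore set by the choice of cells. The 7 fibroblast markers summed to 450 and 82.7 CPM, and to 211 and 65.8 CPM without the marked cells. The 9 Langerhans markers summed to 203 and 77.7 CPM, and to 97.2 and 79.8 CPM without the marked cells. Of 6 Langerhans markers measured in all DETC 5 were called lower in knockout, by the limits given further on, beside 6.81% of all genes. Of 4 measured without marked cells none was, beside 5.52% of all genes. The 6 melanocyte markers summed to 360 and 168 CPM, and to 413 and 171 CPM without the marked cells. Among them 5 of 6 were called lower in knockout both times, beside the same shares of all genes. The counts over all genes, and part of the lists and genes, are therefore given for all DETC and again without marked cells. This step was chosen after the data had been seen. Other comparisons of the libraries are given for all DETC only. The part of RNA from other cells in the remaining differences was not tested.

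DETC were set beside the other T cells of the same libraries to describe how they differ. This is a description and not a test, since the rule chose the cells by genes of the same cells. Type 17 T cells (98 in WT and 33 in knockout, medians 3250 and 3583 UMIs) met the same cell, keratin and CD3 conditions and held Cd163l1 or at least 2 UMIs of Il17a. Alpha-beta T cells (92 and 78, medians 3148 and 3009 UMIs) held alpha or beta constant transcripts and no Trdc. A gene was called higher or lower when it differed by at least 2-fold in both libraries with intervals that left out 1. Of 6584 genes measured against type 17 cells, 225 (3.42%) were higher in DETC and 135 (2.05%) lower. Of 6805 genes measured against alpha-beta cells, 658 (9.67%) were higher and 233 (3.42%) lower. Among these, 178 genes were higher than in both classes, which is 79.1% of the first list and 27.1% of the second.

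Xcl1 stood at 1015 CPM in WT and 1890 CPM in knockout DETC. It stood at 122 and 668 CPM in type 17 cells and at 244 and 176 CPM in alpha-beta cells. DETC were the highest of the 3 classes in each library, by 8.33-fold and 2.83-fold over type 17 cells and by 4.15-fold and 10.7-fold over alpha-beta cells. Nrgn, which encodes the calmodulin-binding protein neurogranin, stood at 322 and 316 CPM in DETC against 19.9 and 57.8 CPM in type 17 cells. Cd7, a surface receptor of T and natural killer cells, stood at 2090 and 2214 CPM against 239 and 816 CPM. Trat1, an adaptor of the T cell receptor complex, stood at 962 and 1029 CPM against 128 and 353 CPM. For each of these genes the ratio over type 17 cells was larger in WT than in knockout: 16.2 and 5.46 for Nrgn, 8.73 and 2.71 for Cd7, 7.49 and 2.91 for Trat1. That difference between the libraries was not tested. Of the type 17 cells, 63 of 98 in WT and 26 of 33 in knockout carried Trdc and a variable gene of the DETC rule, and type 17 cells themselves held 897 CPM of Ctla2a in WT and 3616 CPM in knockout. Without the marked cells, 139 genes rather than 225 were called higher in DETC than in type 17 cells.

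Some transcripts of the other classes were scarce in DETC. Il7r, the interleukin-7 receptor gene, stood at 6.91 and 1.44 CPM in DETC, 315 and 295 CPM in type 17 cells and 242 and 337 CPM in alpha-beta cells. Icos, a costimulatory receptor gene, stood at 18.1 and 2.16 CPM in DETC, 494 and 206 CPM in type 17 cells and 557 and 311 CPM in alpha-beta cells. Blk, a Src-family kinase gene of type 17 gamma-delta T cells, stood at 0.864 and 0.719 CPM in DETC and at 230 and 167 CPM in type 17 cells. Against alpha-beta cells, Ccl5, a chemokine gene, stood at 2.59 and 50.4 CPM against 516 and 1303 CPM, and Ifng, the interferon gamma gene, at 1.73 and 4.32 CPM against 137 and 404 CPM, and neither was called lower than in type 17 cells. Ctla4, an inhibitory receptor gene, stood at 0.864 and 0 CPM against 214 and 89.8 CPM.

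Some receptors shared with natural killer cells were higher in DETC than in the other classes. Of 15 measured genes of this list, 8 were higher in DETC than in type 17 cells and none lower, beside 3.42% and 2.05% of all genes: Klrd1, Klrc1, Klrc2, Klrb1b, Cd244, Cd96, Fcer1g and Cd7. Against alpha-beta cells 10 of 16 were higher, beside 9.67% of all genes, and Tyrobp, a signalling adaptor gene, was lower. Fcer1g, the gene of an Fc receptor signalling chain, stood at 1939 and 2404 CPM in DETC, 244 and 1053 CPM in type 17 cells and 176 and 250 CPM in alpha-beta cells. Of 13 cytotoxic genes, 7 were higher in DETC than in alpha-beta cells, among them Prf1, the perforin gene, while the granzyme genes Gzma and Gzmb were lower. Against type 17 cells 3 of 12 were higher, Nkg7, Ctsw and Ctla2a, while Srgn was lower and Prf1 was not called. Il2rb, the receptor chain gene shared by interleukins 2 and 15, stood at 1078 and 970 CPM in DETC against 374 and 462 CPM in type 17 and 253 and 321 CPM in alpha-beta cells. Itgae, at 380 and 388 CPM in DETC, was called in neither comparison, with 299 and 238 CPM in type 17 and 244 and 221 CPM in alpha-beta cells. Fermt2, which encodes the integrin activator kindlin-2, stood at 872 and 1056 CPM in DETC against 17.1 and 28.9 CPM in alpha-beta cells, and Avil, an actin-binding protein gene, at 490 and 568 CPM against 8.57 and 9.62 CPM.

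**Figure D1:**
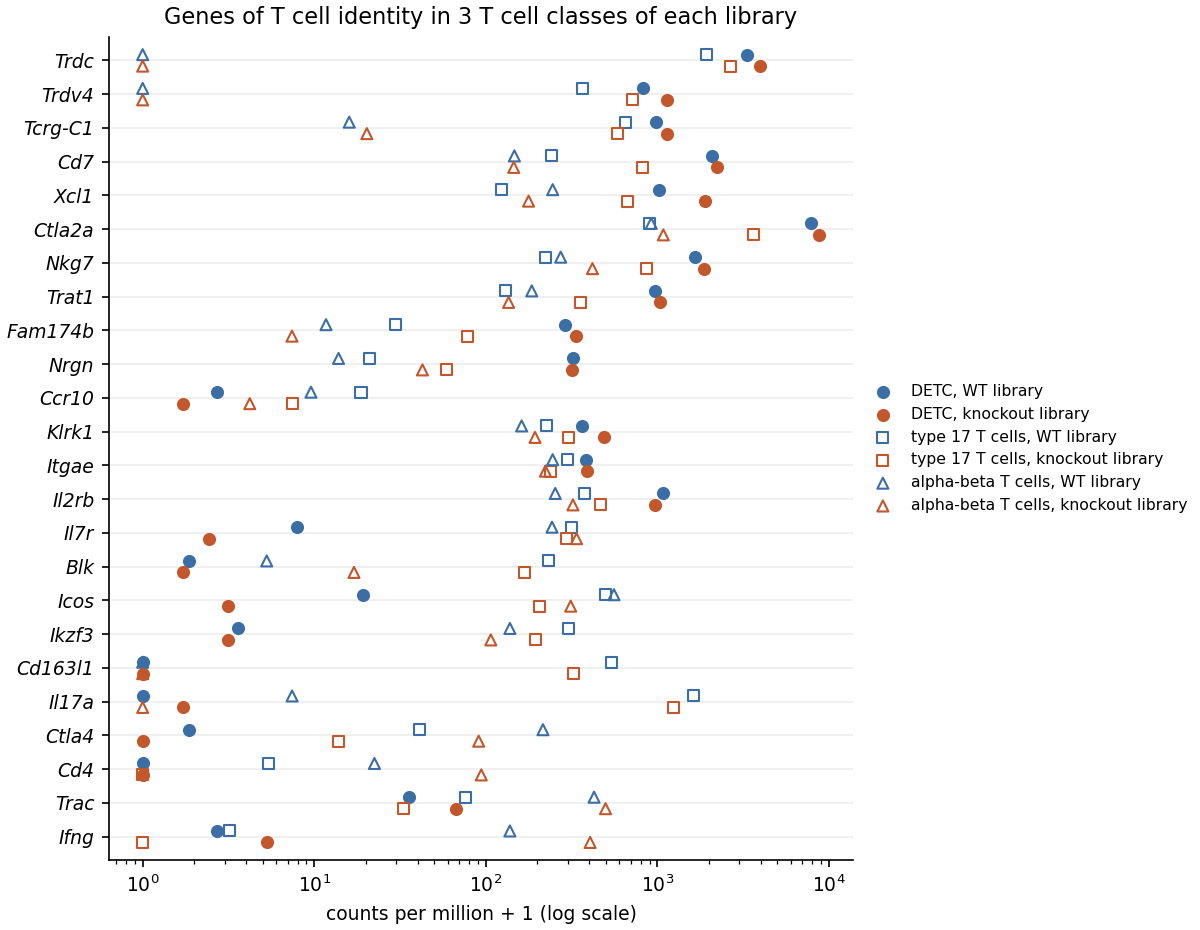
Each row is a gene and the x axis its summed level in CPM plus 1, on a log scale. Filled circles are DETC, open squares type 17 and open triangles alpha-beta T cells, blue for WT and orange for knockout. Xcl1, Ctla2a, Cd7 and Nrgn lie farthest right in DETC of both libraries, and Il7r, Blk and Icos farthest left. Trdc, Trdv4, Cd163l1 and Il17a were part of the rules that chose the classes.

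DETC took a slightly larger share of the cells in the knockout library. They were 3.05% of kept cells in WT (Clopper-Pearson 95% interval 2.73 to 3.40) and 3.88% in knockout (3.50 to 4.29), a ratio of 1.27 (1.09 to 1.48). Among cells with CD3 transcripts and little keratin they were 51.2% of 605 cells in WT (47.2 to 55.3). In knockout they were 63.7% of 567 (59.6 to 67.6), a ratio of 1.24. Type 17 cells were 16.2% and 5.82% of the same cells, a ratio of 0.359 (0.235 to 0.538). When type 17 cells were taken out of the denominator, DETC made up 61.1% (56.7 to 65.4) and 67.6% (63.5 to 71.6). The ratio was 1.11, and the intervals of the 2 shares overlap. The ratio interval used here is made for rare counts and is too wide for such large DETC shares, so it is not given for them. Thinning every cell to 1000 UMIs before applying the rule left 186 of 9799 cells (1.90%) in WT and 245 of 8968 (2.73%) in knockout. The shares follow from digestion and sorting as well as from the skin, and these cannot be told apart with 1 library a genotype.

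To compare the genotypes, UMIs were summed over the DETC of each library and expressed as CPM. A gene was called higher or lower in knockout DETC when the ratio of knockout over WT was at least 1.5-fold in that direction and its exact interval left out 1. Among 8457 genes with at least 20 UMIs over both libraries, 251 (2.97%) were higher and 576 (6.81%) lower, and the median log2 ratio was -0.03. Without marked cells, 230 of 7752 genes (2.97%) were higher and 428 (5.52%) lower. The lists overlapped in part: 170 genes were higher with and without the marked cells and 305 were lower. Higher genes made up 30.4% of the calls under scaling by total UMIs, 41.2% (339 higher and 484 lower) with TMM factors and 46.7% (395 and 450) with median-of-ratios factors, which moved all log2 ratios up by 0.05 and 0.08.

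**Figure D2:**
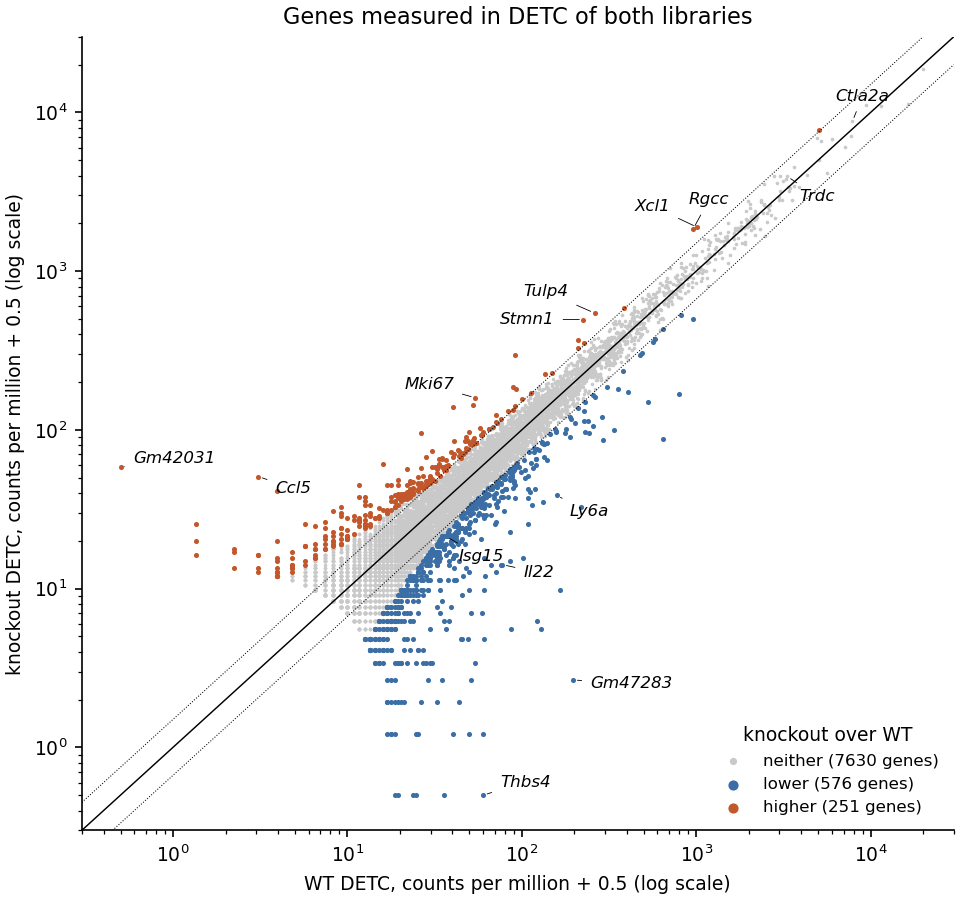
Each point is 1 of the 8457 measured genes, with its level in WT DETC on the x axis and in knockout DETC on the y axis, in CPM plus 0.5 on log scales. The solid line marks equal levels and the dotted lines a 1.5-fold difference. The 251 genes called higher are orange and the 576 called lower blue, and Xcl1 and Rgcc stand out among the abundant genes.

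Chrna5 itself was not detected in DETC, with 0 UMIs in 310 WT and 361 knockout cells, which allows a share of cells with a UMI of up to 0.968% and 0.831%. Over all kept cells it had 13 UMIs in WT and 3 in knockout. Of 25 genes for cholinergic receptors and enzymes, 13 had no UMI in DETC of either library, and 1 had enough UMIs to be measured. That gene was Chrnb1, the beta 1 receptor subunit gene, with 12 UMIs in WT and 17 in knockout DETC and a ratio of 1.18 (0.531 to 2.71), which was not called.

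Among secreted factors, Xcl1 was higher in knockout DETC. It had 1175 UMIs in 231 of 310 WT cells and 2627 UMIs in 286 of 361 knockout cells, or 1015 and 1890 CPM. The ratio was 1.86 (1.74 to 2.00), and 1.73 without marked cells. Cell by cell, its median was 6.2 UMIs per 10000 in WT and 9.64 in knockout and its highest value 68.6 and 269, while the cells of both libraries overlapped over most of the range. In cells thinned to 1000 UMIs, Xcl1 was found in 51.3% of WT and 58.9% of knockout DETC and in 0.151% and 0.201% of keratin-rich cells. No single cell decided this value, with the highest cell holding 2.30% of the WT and 4.38% of the knockout UMIs. Ctla2a and Nkg7, the other markers outside the rule, had ratios of 1.12 and 1.13 and were not called.

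Areg, which encodes the growth factor amphiregulin, stayed just under the fold required. It stood at 2438 CPM in WT and 3556 CPM in knockout DETC, a ratio of 1.46 (1.39 to 1.53). In keratin-rich cells it stood at 349 and 205 CPM, a ratio of 0.588. It was found in 72.6% of WT and 65.4% of knockout DETC, but after thinning to 1000 UMIs in 56.2% and 57.1%, against 18.7% and 13.2% of keratin-rich cells. The 90th percentile over cells was 107 UMIs per 10000 in knockout and 77.1 in WT. The medians lay close, at 11 and 9.98 UMIs per 10000. The difference in the sums therefore lay in the upper part of the range.

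**Figure D3:**
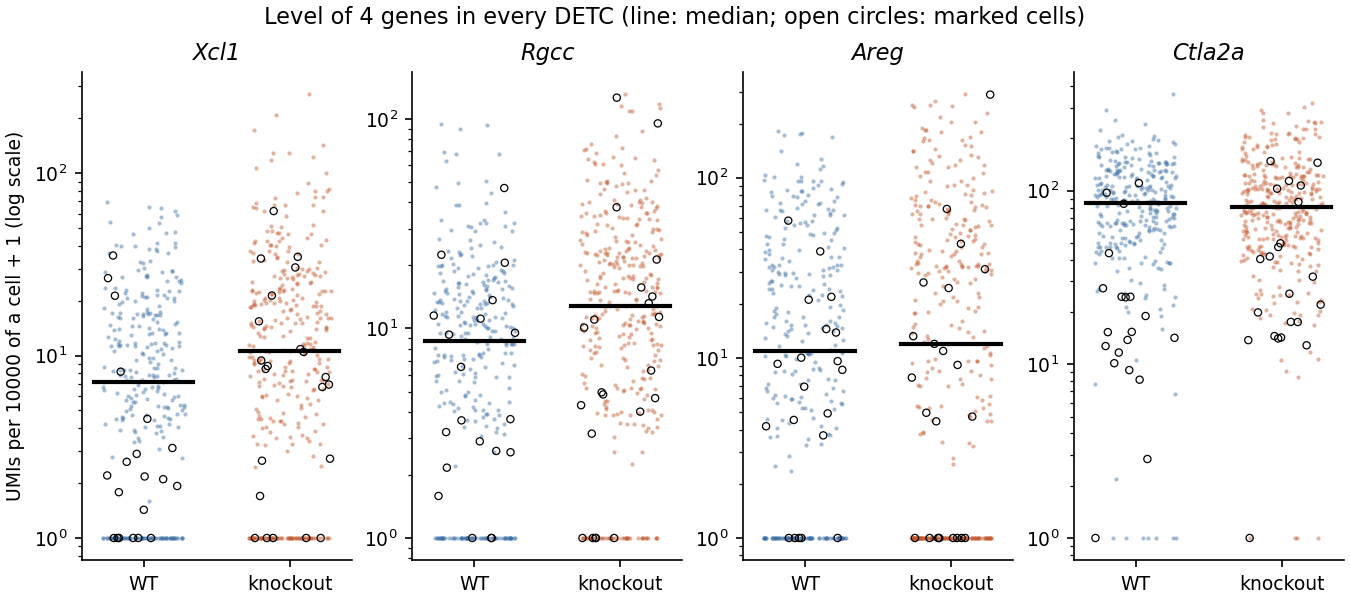
Each point is 1 DETC, with UMIs per 10000 UMIs of the cell plus 1 on a log y axis, for Xcl1, Rgcc, Areg and Ctla2a. Lines are medians and open circles are marked cells. The medians of Xcl1 (6.2 and 9.64) and Rgcc (7.76 and 11.8) are higher in knockout and those of Ctla2a (83.8 and 79.5) lie close. Cells of both libraries overlap over most of the range, and the highest Xcl1 values are in knockout cells.

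The other secreted factors moved in both directions. Of 17 measured members of the list, 3 were higher (Xcl1, Ccl5 and Il2), 5 lower (Il13, Il22, Il17f, Fgf7 and Vegfa) while 9 were not called. Over all genes, 2.97% were higher and 6.81% lower. The list's median log2 ratio was 0.03. Il13, the type 2 cytokine gene, had 61 UMIs in 46 WT cells and 45 in 32 knockout cells, a ratio of 0.615 (0.408 to 0.918). Vegfa, the vascular growth factor gene, stood at 210 and 136 CPM, a ratio of 0.648, close to the 0.636 of keratin-rich cells. Il2, the T cell growth factor gene, had 32 and 61 UMIs and a ratio of 1.59 (1.02 to 2.52), which fell to 1.46 and out of the call without marked cells.

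A few cells carried the remaining calls of this list. Ccl5 had 3 UMIs in 2 WT cells and 70 UMIs in 4 knockout cells, a ratio of 19.4 (6.38 to 96.5). Il22, an epithelial repair cytokine gene, had 89 UMIs in 7 WT cells and 19 UMIs in 5 knockout cells, and 3 cells held 82 of the WT UMIs. Il17f had 30 UMIs in 2 WT cells and 2 UMIs in 2 knockout cells, and Fgf7, the keratinocyte growth factor gene, 29 UMIs in 3 WT cells and 5 in 5 knockout cells. These counts describe a handful of cells in 1 library each. In the list of type 17 genes, 9 were measured and 4 were lower, Il17f, Il22, Maf and Aqp3, beside 6.81% of all genes. The list's median log2 ratio was -0.30. Without marked cells 3 were lower, beside 5.52% of all genes, and the median was -0.07. The 9 type 17 marker genes summed to 148 CPM in WT and 128 CPM in knockout DETC, with 5 and 2 of them at 0. They include Cd163l1, which the rule excluded, and Il17a, which it limited, so the counts of these genes were set or limited by the rule. Igf1 and Fgf10, growth factor genes linked with DETC in wound repair, were too sparse to measure, with 5 and 1 UMIs for Igf1 and 12 and 1 for Fgf10. Tnf, with 62 and 76 UMIs, had a ratio of 1.02 (0.720 to 1.45).

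For the T cell receptor apparatus the counts were near those over all genes. Of 20 measured genes of the complex and its signalling, none was higher and 1, Nfatc1, a calcium-regulated transcription factor gene, was lower, beside 2.97% and 6.81% of all genes, with a median log2 ratio of 0.23. Nfatc1 had 50 UMIs in WT and 20 in knockout, and its ratio of 0.333 became 0.610, without a call, when marked cells were left out. Of the 5 other receptor chain genes, Trac alone was higher, with 40 UMIs in 32 WT cells and 92 UMIs in 63 knockout cells. Its ratio was 1.92 (1.31 to 2.85), and 1.72 without marked cells. Cd3e had a ratio of 0.957, Cd3g of 1.27, Trdc of 1.19 and Trdv4 of 1.38, but these genes were part of the rule.

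Of 18 measured natural killer type receptors and adaptors, 4 were higher and none lower, beside 2.97% and 6.81% of all genes. The median log2 ratio was 0.27. Without marked cells 2 remained, and the median was 0.16. Cd160, a receptor gene, had 25 UMIs in 21 WT cells and 56 in 41 knockout cells, a ratio of 1.87 (1.15 to 3.12), and kept its call. Tyrobp, with 2 UMIs in 2 WT cells and 24 in 9 knockout cells, kept it as well, with a ratio of 10.0 (2.48 to 87.3). Klrc2, a lectin-like receptor gene, and Jaml, the gene of a DETC costimulatory receptor that binds a keratinocyte ligand, had ratios of 1.68 and 1.55 and lost the call without marked cells. Klrk1, the gene of the stress-ligand receptor NKG2D, stood at 362 and 486 CPM, a ratio of 1.34, and Klrd1 at 510 and 440 CPM, a ratio of 0.863.

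Of 12 measured cytotoxic genes, 1 was higher and 1 lower, beside 2.97% and 6.81% of all genes, with a median log2 ratio of 0.21. Serpinb9, which encodes an inhibitor of granzyme B, had 263 UMIs in WT and 181 in knockout, a ratio of 0.573 (0.472 to 0.695), and in keratin-rich cells the ratio was 0.622. Tnfsf10, the gene of the death ligand TRAIL, had 25 and 51 UMIs and a ratio of 1.70, which lost its call without marked cells. Granzyme C, encoded by Gzmc, was found in a minority of cells, with 243 UMIs in 39 WT cells and 377 UMIs in 62 knockout cells and a ratio of 1.29 (1.10 to 1.52). Gzmb was found in 12 and 15 cells, and Prf1, at 364 and 379 CPM, had a ratio of 1.04.

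Receptors for cytokines and chemokines were mostly uncalled, with none of 19 measured genes higher and 2 lower, beside 2.97% and 6.81% of all genes. The median log2 ratio was -0.15. Cxcr4, a chemokine receptor gene, had 22 UMIs in 11 WT cells and 4 UMIs in 4 knockout cells, a ratio of 0.151 (0.0379 to 0.446). Gpr183, an oxysterol receptor gene, had 20 and 10 UMIs and lost its call without marked cells. Il2rb and Il2rg, which build the interleukin-15 receptor on which DETC depend, had ratios of 0.900 and 0.927.

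In the list for epidermal residency and adhesion, 1 of 22 genes was higher and 1 lower, beside 2.97% and 6.81% of all genes. The median log2 ratio was -0.01. The higher gene was Rgs1, a brake on chemokine receptor signalling, at 5053 CPM in WT and 7727 CPM in knockout, a ratio of 1.53 (1.48 to 1.58) that became 1.40 and uncalled without marked cells. The lower gene was Klf2, a transcription factor gene of T cell egress, with 155 UMIs in 28 WT cells and 93 UMIs in 45 knockout cells. Its ratio was 0.50 (0.382 to 0.651), although more knockout cells held it. Without marked cells Epcam was called higher and Klf2 and Plxnd1 lower, beside 2.97% and 5.52% of all genes. Itgae had a ratio of 1.02, and Cd69, the gene of a retention and activation marker, of 1.41 (333 and 470 CPM), neither called. Ahr, the aryl hydrocarbon receptor gene that DETC need to persist, had a ratio of 0.995.

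Of 25 lymphoid transcription factors, none was higher and 4 were lower, Egr2, Id3, Maf and Batf, beside 2.97% and 6.81% of all genes. The median log2 ratio was -0.17. Egr2, an early target of receptor signalling, had 71 UMIs in 20 WT cells and 16 UMIs in 10 knockout cells, a ratio of 0.188 (0.102 to 0.326). Id3, an inhibitor of E proteins, had 208 UMIs in 48 WT cells and 141 in 57 knockout cells, a ratio of 0.565. Runx3, a factor gene of cytotoxic and epidermal T cells, had a ratio of 0.948. Among 10 checkpoint and costimulatory receptors, none was higher and 3 were lower, Icos, Cd81 and Cd82, beside the same shares of all genes. The median log2 ratio was -0.47. The median in keratin-rich cells was -0.54. Icos had 21 UMIs in 10 WT cells and 3 in 3 knockout cells, a ratio of 0.119 (0.0227 to 0.399).

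Cell cycle genes were the list with the most calls. Of 26 measured genes, 15 were higher in knockout DETC and none lower, beside 2.97% and 6.81% of all genes, with a median log2 ratio of 0.94 against -0.03 over all genes. Without marked cells 13 were higher and the median was 0.85. In keratin-rich cells the median over the same genes was 0.19. Mki67, the proliferation antigen gene, had 62 UMIs in 27 WT cells and 221 UMIs in 43 knockout cells. It stood at 53.5 and 159 CPM, a ratio of 2.97 (2.23 to 4.0), and at 192 and 300 CPM in keratin-rich cells, a ratio of 1.56. Stmn1, a microtubule regulator gene of dividing cells, had 261 UMIs in 54 cells and 688 UMIs in 83 cells, a ratio of 2.20 (1.90 to 2.54), against 1.23 in keratin-rich cells. Keratin-rich cells divide too and hold these transcripts. With their profile subtracted as free RNA the ratios were 3.31 for Mki67 and 2.35 for Stmn1. The amount subtracted was set by Krt5 and Krt14, which the rule limited in DETC. It was therefore bounded by the choice of cells, and the part of free RNA was not tested. Cenpf, a kinetochore gene, had a ratio of 3.69 (2.47 to 5.69), Ube2c, which acts in mitotic protein degradation, of 2.75 (2.05 to 3.73), and Top2a, the topoisomerase gene, of 1.95 (1.55 to 2.47).

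Counted as cells, 18 of 310 WT DETC (5.81%, 3.48 to 9.02) and 49 of 361 knockout DETC (13.6%, 10.2 to 17.5) held at least 2 UMIs of 11 genes of G2 and mitosis. After thinning to 1000 UMIs the shares were 3.62% (1.82 to 6.38) and 7.14% (4.68 to 10.4), whose intervals overlap. Without marked cells, and unthinned, they were 5.17% and 13%. The 10 cells richest in these transcripts held 78.3% of them in WT and 57.4% in knockout. Cells with at least 2 such UMIs were deeper, with medians of 5406 and 6331 UMIs among unmarked cells, against 3017 and 3142 in the others. When marked cells and cells with at least 2 such UMIs were both left out, the median log2 ratio of the list was 0.18. The 11 genes that chose these cells belong to the list, so part of that fall was set by the choice. Xcl1 was higher in knockout in both kinds of unmarked cell, at 1362 and 2405 CPM in cells with at least 2 of these UMIs and 1169 and 1960 CPM in the others.

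Part of the interferon response list was lower in knockout DETC. Of 20 measured genes, none was higher, 8 were lower and 12 were not called, beside 6.81% of all genes called lower. The median log2 ratio was -0.65. Without marked cells 9 were lower and the median was -0.62. The median over the same genes was -0.81 in keratin-rich cells of these libraries, so the median was below 0 in both kinds of cell. Whether the ratios differed between DETC and keratin-rich cells was not tested. Ly6a, the gene of the surface protein Sca-1, had 183 UMIs in 96 WT cells and 53 UMIs in 35 knockout cells. It stood at 158 and 38.1 CPM, a ratio of 0.241 (0.174 to 0.329), and at 251 and 169 CPM in keratin-rich cells, a ratio of 0.673. In thinned cells Ly6a was found in 14.1% and 2.29% of DETC and in 21.2% and 14.6% of keratin-rich cells, so its share in DETC was below theirs. With their profile subtracted as free RNA, an amount likewise bounded by the choice of cells, the ratio of Ly6a was 0.204.

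For other interferon genes the ratios in the cell kinds are given side by side. Isg15, a ubiquitin-like modifier gene, had 42 and 29 UMIs and a ratio of 0.575 (0.346 to 0.945), against 0.187 in keratin-rich cells. Ifi27l2a had 51 UMIs in 20 WT cells and 6 in 6 knockout cells, a ratio of 0.0980 (0.0344 to 0.228), against 0.132. Irf9, an interferon regulatory factor gene, had a ratio of 0.50 against 0.680. Bst2, the tetherin gene, with 460 and 505 UMIs and a ratio of 0.914, was not called in DETC, while its ratio in keratin-rich cells was 0.391. In class I antigen presentation, 2 of 16 genes were lower and none higher, beside 6.81% and 2.97% of all genes. The median log2 ratio was -0.22. The lower genes were H2-Q6 and H2-Q7, with ratios of 0.617 and 0.637 in DETC and 0.517 and 0.575 in keratin-rich cells. They are near-identical paralogs, and the division of reads between them is uncertain. Without marked cells 3 of 16 were lower, beside 5.52% of all genes, with Nlrc5 added at a log2 ratio of -1.07. The classical genes H2-K1 and B2m had ratios of 0.804 and 0.821.

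**Figure D4:**
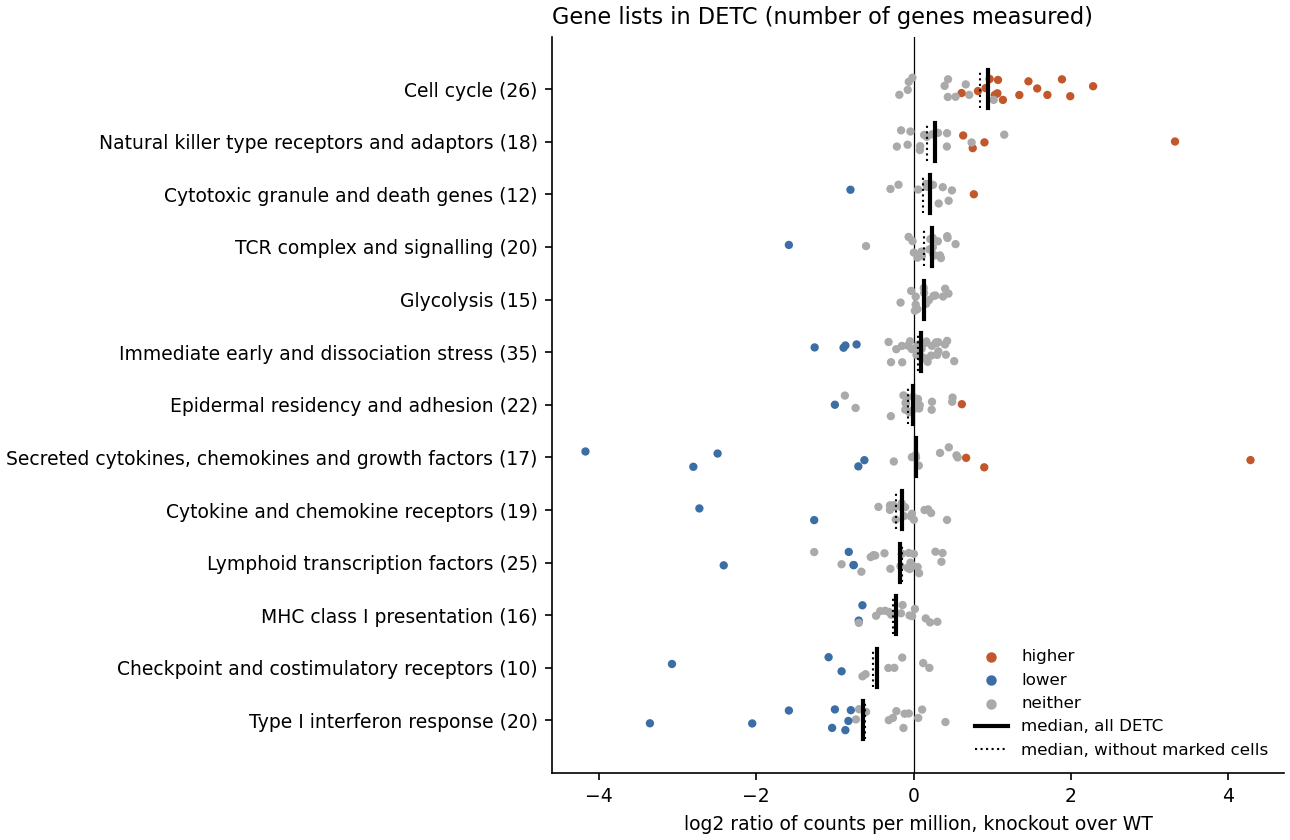
Each row is a gene list with its number of measured genes, and each point a gene's log2 ratio of knockout over WT in DETC. Orange points were called higher, blue lower and grey neither, the thick bar is the median over all DETC and the dotted line the median without marked cells. Cell cycle genes lie highest, with a median of 0.94, and interferon response genes lowest, at -0.65.

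Immediate early and stress genes, which can rise during tissue digestion, gave 4 lower genes, none higher and 31 without a call. Over all genes, 6.81% were lower and 2.97% higher. The list's median log2 ratio was 0.09, against 0.18 in keratin-rich cells. Fos, an AP-1 subunit gene, stood at 2784 and 3980 CPM, a ratio of 1.43 (1.37 to 1.49), and without marked cells at a ratio of 1.54, which was called higher. In keratin-rich cells the ratio of Fos was 1.56. The near-identical heat shock genes Hspa1a and Hspa1b were lower, with ratios of 0.418 and 0.605, and Hspa1a was held by 38 WT and 40 knockout cells. Ier3 and Nfkbiz, feedback genes of NF-kB signalling, had ratios of 0.548 and 0.539. Of 15 glycolysis genes none was called, and their median was 0.13.

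Genes outside these lists that were called with and without marked cells are named by a rule added after the data had been seen. They had at least 50 UMIs in unmarked cells and were found in at least 10% of the DETC of either library, marked cells included. Rgcc had 1110 UMIs in 241 WT cells and 2555 UMIs in 313 knockout cells, or 959 and 1838 CPM. Its ratio was 1.92 (1.79 to 2.06), 1.84 without marked cells and 1.31 in keratin-rich cells, where it stood at 85.0 and 111 CPM. Tulp4, a tubby-like protein gene at chr17:6106437-6251128, had 302 UMIs in 169 WT cells and 757 UMIs in 283 knockout cells, or 261 and 545 CPM. Its ratio was 2.09 (1.82 to 2.39), 2.03 without marked cells and 1.02 in keratin-rich cells. Thinned to 1000 UMIs, Rgcc was found in 55.6% and 66.6% of DETC against 7.75% and 9.14% of keratin-rich cells, and Tulp4 in 23.4% and 40.3% against 9.51% and 8.28%. Rgcc and Tulp4 were thus higher over much of the DETC, not in a few cells. Less abundant genes of the same kind were Bud23, a ribosomal RNA methylation gene, with 14 UMIs in 14 cells and 52 in 48 cells, and Srgap3, with 10 UMIs in 9 cells and 45 in 39 cells. Their ratios of 3.09 and 3.75 stood beside 0.944 and 1.17 in keratin-rich cells.

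Lower genes of this kind included Hist1h2bc, a histone gene, with 389 UMIs in 71 WT cells and 139 in 58 knockout cells, a ratio of 0.298 (0.243 to 0.362) against 1.23 in keratin-rich cells. As a member of a multigene family its counts are uncertain. Cyr61, a secreted matrix protein gene, had 254 UMIs in 43 WT cells and 45 in 40 knockout cells, and 1 WT cell held 34.3% of the WT UMIs. Nudt18, a nucleotide hydrolase gene, had 82 UMIs in 57 WT cells and 36 in 34 knockout cells, a ratio of 0.366 (0.240 to 0.547) against 1.04 in keratin-rich cells. Slc32a1, the vesicular transporter gene for GABA and glycine, had 81 UMIs in 40 WT cells and 35 in 27 knockout cells, a ratio of 0.360 (0.235 to 0.541). In keratin-rich cells it was almost absent, at 0.109 and 0.0930 CPM.

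Several of the most extreme ratios had the same direction in keratin-rich cells of the same libraries. Gm47283, annotated on chromosome Y, had 228 UMIs in 138 WT cells and 3 UMIs in 3 knockout cells, a ratio of 0.0110 (0.00224 to 0.0324), and 0.0162 in keratin-rich cells. The Y-linked genes Ddx3y, Eif2s3y, Uty and Kdm5d had no UMI in DETC of either library. Gm42031, a long noncoding RNA gene on chromosome 8, had no UMI in WT and 80 in 39 knockout cells. With a floor of 3 counts in place of 0 for the WT library its ratio was 22.2. The lower bound of the exact interval was 17.7. Its ratio in keratin-rich cells was 254. Gm42047, another on chromosome 8, had ratios of 0.110 in DETC and 0.149 in keratin-rich cells, and mt-Nd3, a mitochondrial respiratory gene, 0.420 and 0.438. The melanocyte genes Mlana and Tyrp1 had ratios of 0.360 and 0.319 in DETC and 0.342 and 0.394 in keratin-rich cells. Ptk2, the focal adhesion kinase gene, had ratios of 2.58 and 2.65.

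**Figure D5:**
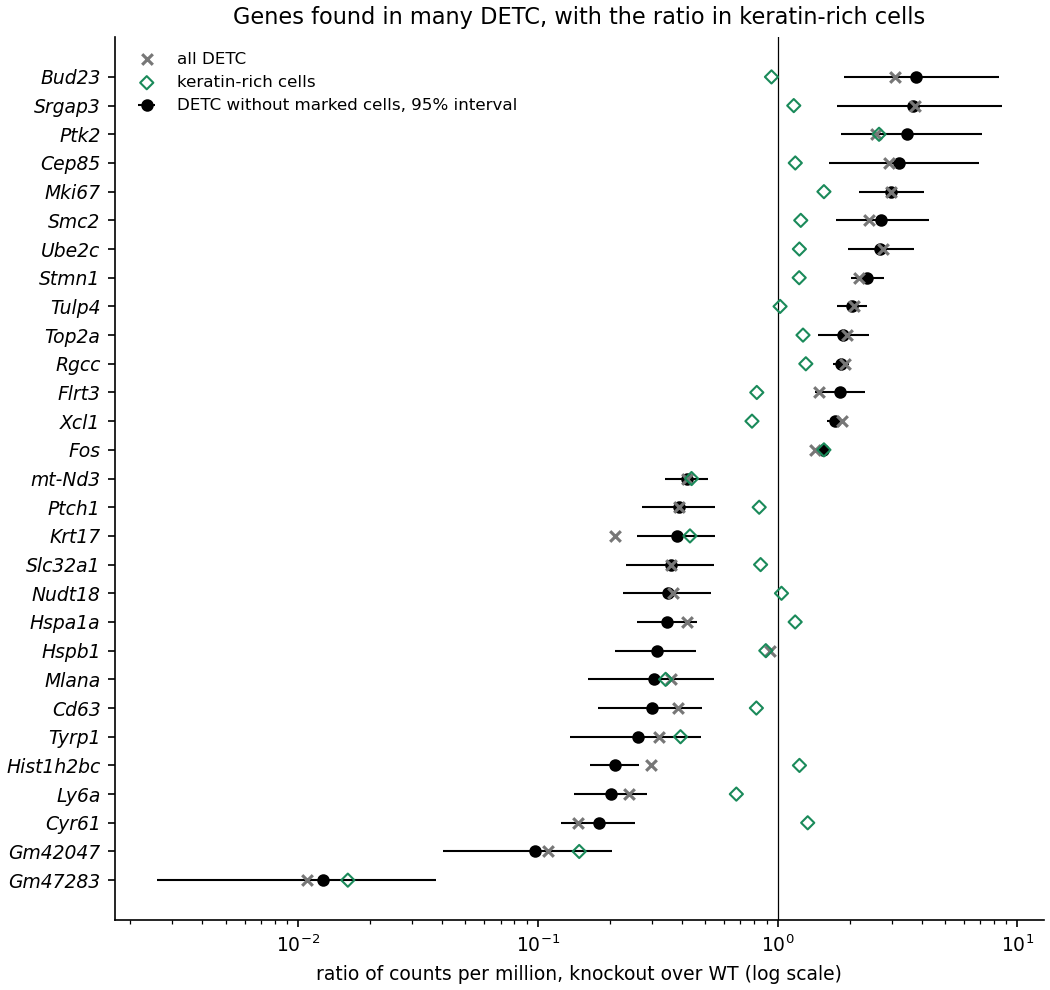
Each row is a gene found in many DETC and the x axis is the ratio of knockout over WT on a log scale. Black circles with 95% intervals are DETC without marked cells, grey crosses all DETC and green diamonds keratin-rich cells. For Gm47283, Gm42047, mt-Nd3, Mlana and Ptk2 the diamonds lie near the DETC values, whereas for Xcl1, Tulp4, Hist1h2bc and Nudt18 they lie near or across 1. Keratin-rich cells held little Xcl1, found in 0.151% and 0.201% of them after thinning.

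Many of the most extreme ratios came from single cells with transcripts of other cell types. Thbs4 and Eln had 69 UMIs each, Aspn 57 and Dpt 50, each in 1 WT DETC, against 0, 1, 1 and 2 UMIs in all knockout DETC. These are genes of fibroblasts and their matrix. Wif1, an inhibitor of Wnt signalling, had 148 UMIs in 16 WT cells, of which 2 cells held 89.2%, and Enpp2, the autotaxin gene, 141 UMIs in 10 cells, of which 2 held 84.4%. Marked cells held only 2.70% of the WT UMIs of Wif1 and 11.3% of those of Enpp2. Both genes stayed lower without marked cells, with ratios of 0.00535 and 0.0308. The marking thus did not take out the cells richest in these 2 genes. On the other side, Lor, a cornified envelope gene, had 57 knockout UMIs with 98.2% in 1 cell. Igfbp3, an insulin-like growth factor binding protein gene, had 86.0% of its 193 knockout UMIs in marked cells, and its ratio without them was 0.717.

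Across single DETC, the genes most like Xcl1 were Tmsb4x, Ctla2a, Cd3g, Tmsb10 and Pfn1, by the lower of the Spearman correlations in the 2 libraries. Over 304 WT and 350 knockout cells thinned to 1000 UMIs, and 2131 genes, the correlations were 0.23 and 0.29 for Tmsb4x, an actin-sequestering protein gene, and 0.24 and 0.20 for Ctla2a. The remaining 3 lay between 0.15 and 0.27. These weak values describe sparse counts from cells that share a library.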

How the data were processed

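Single-cell RNA was measured in 1 library of WT and 1 of Chrna5-/- dorsal skin. The authors deposited UMI counts per gene and cell barcode (10741 and 9696 barcodes, 139673385 and 125458721 UMIs), made with Cell Ranger 3.0.2 on mm10, with Seurat 3.0 also listed, per the submitters' processing notes. The file headers name software version 3.1.0. The submitters' extraction notes mention imiquimod, while the sample labels and title give vaseline, which was followed here.

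Counts of DETC were summed per library and scaled to a total of 1000000 (CPM). The ratio of knockout over WT has an exact conditional binomial 95% interval, and shares have Clopper-Pearson intervals. Genes with at least 20 UMIs over both libraries were measured. Higher and lower mean 1.5-fold with an interval that leaves out 1, and there is no test and no p-value. Thinned values use 1000 UMIs drawn from each cell. The deposited barcodes were taken as given. Scrublet, run in scanpy 1.11.5, set its own thresholds that marked 0.0295% of WT and 1.19% of knockout cells, so a common score of 0.25 was used, and marked cells were left out only where stated. Python 3.11.15, numpy 2.4.6, scipy 1.17.1, pandas 2.3.3, and edgeR 4.0.16 in R 4.3.3 (TMM factors only) were used, and the computation was tested on simulated data. With counting error alone, 245 of 8166 unchanged genes were still called there, and 44 of 50 genes changed 2-fold were found.

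The members, gene lists and markers were chosen with earlier results of these data known. Genes were named by rule: the 12 genes farthest from a ratio of 1 in each direction by the nearer interval bound with at least 50 UMIs, the 12 higher and 6 lower against each other T cell class, and from each list its called, most abundant and extreme members. Broad genes present in at least 10% of the DETC of either library, marked cells included, were named by an added rule. Of the rule's extreme genes, those confined to a few cells are given together.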

Additional observations from a re-analysis of the deposited data

How the results depend on the processing

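The gene ratios, list medians, counts and kept-cell share named here were recomputed with other gates, filters, scalings and cell sets. The class counts had 3 alternatives each, and levels, correlations and some genes such as Areg were not part of this set. The sets without marked cells, type 17 transcript carriers or cycling cells were chosen after seeing the data. The share ratio lay between 1.22 and 1.44, and its interval included 1 (0.848 to 1.96) with both Trdv4 and Tcrg-V5 required. The 251 genes higher became 158 when both Trdv4 and Tcrg-V5 were required, 147 without marked and cycling cells, 115 after thinning, 395 with median-of-ratios factors and 124 at a fold of 2. The 576 genes lower became 167 when both were required, 162 after thinning, 349 with at least 50 UMIs and 351 at a fold of 2. Genes above type 17 cells numbered 139 without marked cells. Requiring both variable genes (45 WT and 53 knockout cells) turned the ratios of Aqp3 to 1.47, Enpp2 1.17, Hspa1a 6.27, Hspa1b 1.96, Igfbp3 0.528, Il2 0.320, Klf2 1.76, Maf 1.06, Mcm6 0.880, Slc32a1 1.76, Stfa1 0.880, Tnfsf10 0.880, Trim30a 1.03 and Tyms 0.550. Without that requirement Gpr183 stood at 1.05. Thinning turned Id3 to 1.07, Jaml to 0.917 and Nfkbiz to 1.09. Leaving out cells by Scrublet score turned Igfbp3 to 0.708, leaving out marked cells turned Igfbp3 to 0.717 and Aqp3 to 1.16, and leaving out cycling cells too turned Igfbp3 to 0.737 and Rrm2 to 0.718. The causes were not tested. Over these settings Xcl1 ranged from 1.68 to 1.97, Rgcc from 1.73 to 2.17, Tulp4 from 2.00 to 3.55, Mki67 from 2.18 to 3.54 and Ly6a from 0.114 to 0.263, and the interferon median from -0.86 to -0.43. Of 1298 recomputed ratios for 96 genes, 1119 held, 156 moved and 23 reversed. A ratio held when it lay inside the gene's main interval without reversing, and that interval is wide for sparse genes. Every setting used the same libraries, so these counts cannot stand in for replicates. No paired analysis was possible because each genotype has 1 library and no replicate numbers. Genes under 20 UMIs, such as Chrna5, Igf1 and Fgf10, could not be compared at this depth.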
